A study of Caenorhabditis elegans with 2 samples.

Results

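The regions described here are stretches of the autosomes of the nematode Caenorhabditis elegans that lay between genes, away from promoters, and carried a high signal for the protein GEI-17 in chromatin immunoprecipitation and sequencing (ChIP-seq). They were chosen by the signal value of the pooled candidate list and by position. A region was a member if its signal value was 60 or more and its summit lay in no annotated gene of any kind, outside the window from 1000 bp before to 200 bp after every protein-coding start, and more than 500 bp from any tRNA, snoRNA or snRNA gene. This gave 486 members on the 5 autosomes out of 29925 nuclear candidate regions, of which 4118 had a signal value of 60 or more. Another 2682 autosomal candidates met the same conditions on position but had a signal value under 60, and 270 regions of the X chromosome met all conditions except that of the chromosome. Sequence open to members made up 16.3 Mb, or 19.8% of the autosomes. The signal value chose the members, so it is given as a description. No test was made on it or on any other measure of the members.

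The worms were whole young adults of strain OP572, 64 h old and grown from larvae that had been starved as L1 after bleaching, with males and females pooled. They carried the unc-119 allele tm4063 and the integrated transgene wgIs572, in which gei-17 is fused to the tags TY1, EGFP and 3xFLAG and which also supplies unc-119(+). There was 1 group of 2 samples, which the labels number as biological replicates 4 and 5. Chromatin was sheared by sonication to a size range of 200 to 800 bp and precipitated with an antibody to GFP. The strain is 1 transgenic line in which the tagged protein is made beside the worm's own gene. Signal was averaged over all tissues of the animal, so the tissue in which a region was occupied was not measured. Untagged worms were not analysed here, so signal that does not depend on the tagged protein cannot be told apart at any region.

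GEI-17 belongs to the PIAS family of SUMO E3 ligases, which help to attach the small protein SUMO to other proteins, many of them transcription factors and chromatin proteins. PIAS proteins are generally thought to reach chromatin largely through such partners. Regions between worm genes and away from annotated starts can hold enhancers, unannotated or trans-spliced gene starts, microRNA promoters, repeats and the ends of genes.

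Each candidate list held 30000 summits, a fixed number, so list length says nothing about depth, and no read counts were used. The list that passed the irreproducible discovery rate filter (IDR) held 1030 summits, the lowest with a signal value of 110.4. The scale of the signal value is not stated, so its size was not compared between lists, and ranks within each list are given where replicates are set side by side. The precision of any single region is unknown. Intervals in brackets are exact 95% intervals for the counting of regions only. Neighbouring regions are not replicates of a condition.

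The 8 members with the highest signal among those whose sequence can be shown are printed first, because they show what kind of DNA carried the strongest autosomal intergenic signal. Each stretch is 201 bases of ce11, plus strand, centred on the summit, from the RefSeq assembly of that build, and is named by the nearest protein-coding start. The stretches lay at chrIII:4282081-4282281 for sup-26, chrIV:2219538-2219738 for T04C4.3, chrII:2974053-2974253 for nhr-88, chrV:20778338-20778538 for hif-1, chrV:16355955-16356155 for pptr-1, chrIV:8795169-8795369 for C33D9.3, chrIII:8865395-8865595 for K01F9.2 and chrIV:12032527-12032727 for mrpl-51. Capitals mark, on either strand, the GAGA repeat (GAGAGAGA), the word AGACGCAG and the E-box (CACGTG), whose matches may overlap one another.
sup-26: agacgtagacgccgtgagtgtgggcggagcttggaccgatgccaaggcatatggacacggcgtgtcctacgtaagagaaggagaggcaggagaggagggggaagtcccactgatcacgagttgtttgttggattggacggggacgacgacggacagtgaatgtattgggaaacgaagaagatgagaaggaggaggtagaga
T04C4.3: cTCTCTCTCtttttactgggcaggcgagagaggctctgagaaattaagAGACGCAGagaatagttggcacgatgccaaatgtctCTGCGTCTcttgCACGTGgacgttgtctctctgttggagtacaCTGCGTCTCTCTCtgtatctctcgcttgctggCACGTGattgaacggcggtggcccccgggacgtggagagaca
nhr-88: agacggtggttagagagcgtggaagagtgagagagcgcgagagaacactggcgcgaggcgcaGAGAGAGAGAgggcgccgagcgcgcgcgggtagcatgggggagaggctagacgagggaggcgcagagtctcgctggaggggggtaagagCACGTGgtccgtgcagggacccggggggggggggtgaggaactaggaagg
hif-1: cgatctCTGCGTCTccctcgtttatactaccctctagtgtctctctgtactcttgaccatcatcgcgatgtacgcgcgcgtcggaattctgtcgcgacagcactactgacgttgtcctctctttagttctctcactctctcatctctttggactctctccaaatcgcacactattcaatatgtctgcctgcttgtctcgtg
pptr-1: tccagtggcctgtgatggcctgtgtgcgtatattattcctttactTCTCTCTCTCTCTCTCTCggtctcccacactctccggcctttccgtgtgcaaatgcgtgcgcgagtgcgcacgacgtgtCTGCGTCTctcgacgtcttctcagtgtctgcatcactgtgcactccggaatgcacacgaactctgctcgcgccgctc
C33D9.3: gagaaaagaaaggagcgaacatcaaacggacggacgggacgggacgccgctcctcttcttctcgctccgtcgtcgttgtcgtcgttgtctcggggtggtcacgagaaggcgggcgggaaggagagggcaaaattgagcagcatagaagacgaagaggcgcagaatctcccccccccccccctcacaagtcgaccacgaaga
K01F9.2: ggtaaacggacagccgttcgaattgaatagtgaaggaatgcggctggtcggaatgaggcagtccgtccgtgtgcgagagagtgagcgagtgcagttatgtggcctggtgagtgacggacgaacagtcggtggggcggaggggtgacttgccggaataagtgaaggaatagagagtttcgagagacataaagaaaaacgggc
mrpl-51: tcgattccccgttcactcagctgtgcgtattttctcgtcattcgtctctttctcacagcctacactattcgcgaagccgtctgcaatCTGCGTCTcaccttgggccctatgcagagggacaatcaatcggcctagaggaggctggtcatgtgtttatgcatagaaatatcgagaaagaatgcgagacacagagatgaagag
The T04C4.3 stretch held 3 matches to the word, 2 to the repeat and 2 to the E-box. The pptr-1 stretch held 6 overlapping matches to the repeat and 1 to the word, and those of hif-1 and mrpl-51 held 1 match each to the word. The stretches of sup-26, C33D9.3 and K01F9.2 held none of these letters within 100 bp of the summit.

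The word AGACGCAG recurred among the members in a longer shared context, and the 10 highest members that hold it and can be shown are printed to make that context visible. Each line is 40 bases of ce11 with the match nearest the summit in capitals, written in the direction that reads AGACGCAG. They lay at chrIV:2219606-2219645 (minus strand, T04C4.3), chrV:20778328-20778367 (minus strand, hif-1), chrV:16356063-16356102 (minus strand, pptr-1), chrIV:12032598-12032637 (minus strand, mrpl-51), chrV:2600654-2600693 (minus strand, F53E10.5), chrII:12798893-12798932 (minus strand, cpt-1), chrIII:5506465-5506504 (plus strand, D1044.7), chrIII:8658585-8658624 (plus strand, F22B7.9), chrII:12102546-12102585 (plus strand, Y17G7B.17), chrIII:6606298-6606337 (minus strand, mdh-2).
T04C4.3: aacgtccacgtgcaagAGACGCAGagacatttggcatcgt
hif-1: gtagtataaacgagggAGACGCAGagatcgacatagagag
pptr-1: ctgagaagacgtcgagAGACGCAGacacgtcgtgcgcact
mrpl-51: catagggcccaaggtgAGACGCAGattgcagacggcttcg
F53E10.5: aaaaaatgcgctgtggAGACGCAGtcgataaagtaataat
cpt-1: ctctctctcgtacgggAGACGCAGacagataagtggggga
D1044.7: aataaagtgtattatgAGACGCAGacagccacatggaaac
F22B7.9: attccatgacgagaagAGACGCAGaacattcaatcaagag
Y17G7B.17: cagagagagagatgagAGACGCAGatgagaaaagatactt
mdh-2: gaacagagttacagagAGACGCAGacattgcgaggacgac
Over all 102 matches in the members, the base just before the word was G in 89.2% and the base 1 earlier was A in 64.7%. The base just after it was A in 73.5%, and the next but 1 was A in 62.7%. These flanks were counted in members only, and matches shared by overlapping windows count more than once. GAGACGCA, which holds the G before the word, was also at 5.29% of candidates under 60, beside 6.003% for AGACGCAG. The context is thus not particular to the members.

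The highest member lay upstream of sup-26, which encodes an RNA-binding protein that represses translation of the sex determination gene tra-2. Its interval, chrIII:4281902-4282462, had a pooled signal value of 619.7, ranked 32 of all nuclear regions, and its summit was 1957 bp upstream of the sup-26 start. The signal value there was 237 in replicate 4 and 396 in replicate 5, at ranks 41 and 27 of those lists. Both replicates thus placed it close to the top. A second member on nearly the same interval, with its own summit 2160 bp upstream, had a pooled signal value of 152, and another with a signal value of 139.99 lay nearer R10E4.3 on the other side of the same intergenic stretch.

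The next was the region between T04C4.3 and fnip-2 at chrIV:2219443-2219825, with a pooled signal value of 478 and values of 188 in replicate 4 (rank 63) and 293 in replicate 5 (rank 38). It held 16 overlapping matches to the GAGA repeat and 3 to the word within 150 bp of the summit, a number of words that 1 other member also reached and none passed. Its summit lay 2782 bp upstream of T04C4.3 and 3190 bp from fnip-2, on the other side. The region at chrI:16899-17149 had a pooled signal value of 314, with ranks 123 and 88 in replicates 4 and 5. It is named for nlp-40, a neuropeptide-like gene whose product is secreted by the intestine, but the summit was 178 bp past the end of that gene and 5520 bp from its start, and rcor-1 lay 469 bp away on the other side.

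The region upstream of nhr-88, a nuclear hormone receptor gene, had a pooled signal value of 294 at chrII:2973927-2974280, with ranks 91 and 113 in replicates 4 and 5. It had the highest GC content of any member, 62.8% within 150 bp of the summit. The region at chrV:20778334-20778583, 1969 bp upstream of hif-1, the hypoxia-inducible transcription factor, had a pooled signal value of 244 and ranks of 460 and 115. Upstream of pptr-1, a regulatory subunit of a protein phosphatase, the region at chrV:16355980-16356163 had a pooled signal value of 239 and ranks of 379 and 137. These 3 stood in the list that passed IDR, as did all of the 20 highest members. The C33D9.3 region (chrIV:8795210-8795343, pooled signal value 234) was less even between replicates, at rank 258 in replicate 4 and 2098 in replicate 5.

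Others of the 20 highest lay near genes of varied function. The region 1729 bp upstream of asd-1, a splicing factor of the RBFOX family, had a pooled signal value of 222 and was 198 bp from xbp-1, a transcription factor of the unfolded protein response. Regions near mrpl-51 (mitochondrial ribosomal protein), mtm-3 (a myotubularin lipid phosphatase), oaz-1 (ornithine decarboxylase antizyme) and bet-1 (a bromodomain protein) had pooled signal values of 224, 217, 207 and 201. The mrpl-51 summit was 473 bp past the end of that gene and 1655 bp from sqst-1, the autophagy receptor gene. F40E3.3 (251), K01F9.2 (225), F58D12.3 (218), F53E10.5 (198) and T16A9.3 (194) made up the rest, with 3 regions downstream of K08F11.1 at 223, 219 and 217. A start nearest in bases is only a name for a region, and which gene it acts on, if any, was not measured.

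The 486 members had a median signal value of 78.8 and ranged from 60.02 to 619.7, so most lay low in that range. The 5 just inside were near mel-26 (60.2), srg-33 (60.2), saeg-1 (60.1), gei-8 (60.1) and Y45G5AL.1 (60.02). The 5 just outside were near gpdh-3 (59.9), T05E12.8 (59.8), F32B5.6 (59.8), gdh-1 (59.8) and tank-1 (59.8). Intervals were of 1 size for the most part: 439 of 486 (90.3%) were 444 bp wide, and the others ran from 111 to 657 bp.

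In all, 108 members (22.2%) were in the list that passed IDR, beside 3.26% of all nuclear regions. Of X regions at 60 or more 29.3% were in it, and of autosomal promoter regions at 60 or more 29.5%. Since that list followed the same signal value, the share of members restates their choice. At the summit, 451 of 486 (92.8%, 90.1 to 94.9) had a candidate of both replicates, beside 43.3% of all autosomal intergenic candidates and 34.4% of those under 60. X regions and autosomal promoter regions at 60 or more stood at 93.0% and 92.4%, so the members were near other regions of high signal. The pooled list holds the reads of both replicates, so these shares too are a description. Another 11 members had a candidate of replicate 4 only, 22 of replicate 5 only, and 2 of neither.

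Among the top 4118 regions of each replicate alone were 307 members in replicate 4 and 365 in replicate 5, with 216 in both. Members whose intervals overlap can share 1 replicate candidate. Over the 451 members with both, the Spearman correlation of the replicate signal values was 0.272 and the Pearson correlation of their log10 values 0.353, as a description across regions of the same 2 libraries. The range was restricted by the threshold. The highest member without a candidate in 1 replicate was the first K08F11.1 region (chrIV:4725433-4725699, pooled 223), listed at rank 307 in replicate 5 and with no summit candidate in replicate 4. W06H8.6 (112) and T04C9.2 (101) also lacked a candidate in replicate 4, and C34B4.2 (108) and acs-6 (100.1) lacked one in replicate 5.

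**Figure D1:**
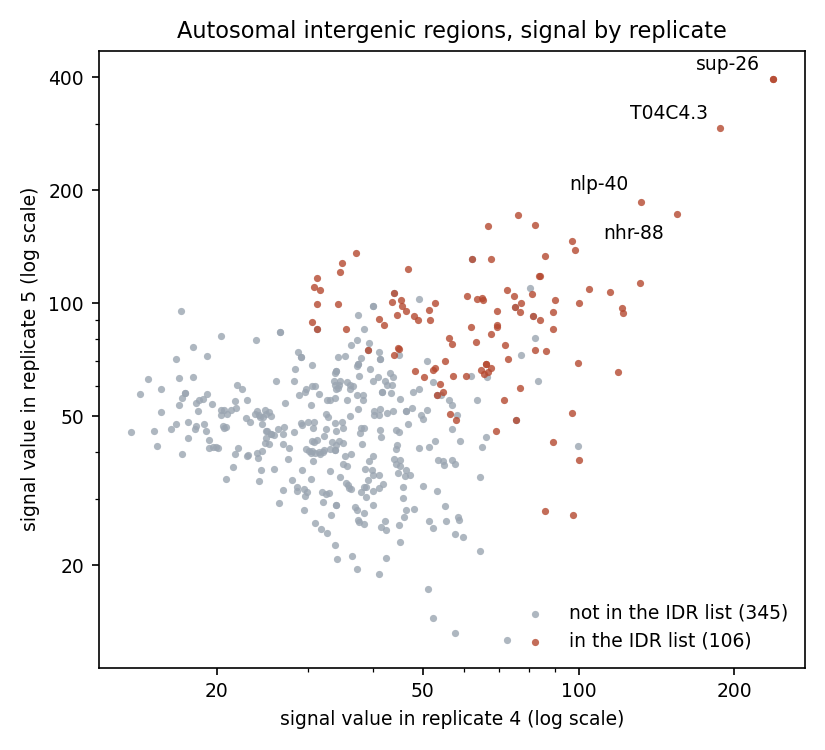
Signal value of the 451 members with a candidate in both replicates, replicate 4 on the horizontal and replicate 5 on the vertical axis, both on log scales, 1 point for each member, with the 4 highest by pooled signal named. The 106 members in the list that passed IDR include the points furthest to the upper right, with sup-26 at 237 and 396. Some of them lie low in 1 replicate, such as fat-2 at 30.8 in replicate 4 and rps-6 at 27.9 in replicate 5. The other 345 members form a broad cloud.

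Short sequences near the summits were a trait that many members shared and that the rule did not use. Within 150 bp of the summit, 94 of 486 members (19.3%, 15.9 to 23.1) held the GAGA repeat, beside 9.41% of all autosomal intergenic candidates and 7.61% (6.63 to 8.68) of those under 60. The share was 9.63% (6.39 to 13.8) in the X regions at 60 or more and 9.88% in autosomal promoter regions at 60 or more. The repeat was sought because it had already been seen at the strongest regions of this series, so its share here is no separate evidence.

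A search over all words of 8 letters, made after the data were seen, ranked words by the difference in share between members and autosomal intergenic candidates under 60. The first 2 were the GA repeat in its 2 registers, and the next was AGACGCAG. It was present at 86 members (17.7%, 14.4 to 21.4), beside 7.8% of all autosomal intergenic candidates and 6.003% (5.13 to 6.97) of those under 60. The X regions at 60 or more held it in 7.04% (4.29 to 10.8), and autosomal promoter regions at 60 or more in 13.5%. Because the word was picked for this difference, the shares describe the members and test nothing. The words placed next, GAGACGCA (79 members) and GACGCAGA (73), overlap it by 7 letters.

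The repeat and the word were found together at 37 members (7.61%, 5.42 to 10.3), beside 28 of 2682 candidates under 60 (1.04%). At least 1 of them was present at 143 members (29.4%) and at 337 of those candidates (12.6%), so the other members, the majority, had neither. Members with the word had a median pooled signal value of 105 against 76.9 for those without, and 40.7% against 18.3% of them were in the list that passed IDR. In the replicate lists their median ranks were 1744 against 2807 in replicate 4 and 1265.5 against 2160 in replicate 5. The word was picked on the same pooled signal, which these lists follow or share reads with. These values are therefore a description and no separate evidence.

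The E-box, a site for basic helix-loop-helix factors, was present at 65 members (13.4%, 10.5 to 16.7), beside 7.79% of candidates under 60 and 10.7% of X regions. CA repeats (CACACACA) stood at 11.3% beside 5.74%, with 27 of the 270 X regions, and CG runs (CGCGCG) at 7.61% beside 4.70%. CG runs were also at 5.56% of X regions and 8.65% of autosomal promoter regions at 60 or more, so they were not particular to the members. The highest members with these were T04C4.3 and nhr-88 for the E-box, gpb-1 and T23E1.1 for the CA repeat, and nhr-88 and F40E3.3 for the CG run. Heat shock elements (TTCTAGAA) were at 1.65% of members and 1.83% of candidates under 60, with Y41E3.13 and zip-11 the highest of the 8 members that held one. E2F sites (TTTCCCGC) were at 2.06% and 2.39%, led by nhr-20 and unc-116. GATA sites (CTGATAAG) were at 2.67% and 2.01%, led by cpt-1, and AP-1 sites (TGACTCA) at 2.47% and 2.87%, led by zfr-1 and rps-6.

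Telomere repeats (TTAGGCTTA) were at 1.03% of members and 1.27% of candidates under 60, led by R06C1.4 and egl-18. Partial X-box sites (GTTGCCAT) were at 0.617% and 0.671%, led by dip-2 and asp-13. Runs of A (AAAAAAAA) were at 26.5% and 30.5%, led by nlp-40 and C33D9.3. The core of the MEX motif (GCGCAGGG) marks recruitment sites of the dosage compensation complex on X. It was at 0 of 486 members, with an upper limit of 0.756%, and at 11 of 270 X regions (4.07%). Candidates under 60 held it at 3 of 2682 (0.112%), and autosomal promoter regions at 60 or more at 1 of 1063. The members were thus near the share of other autosomal regions. All motifs were sought on both strands, and a match is only a match of letters.

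**Figure D2:**
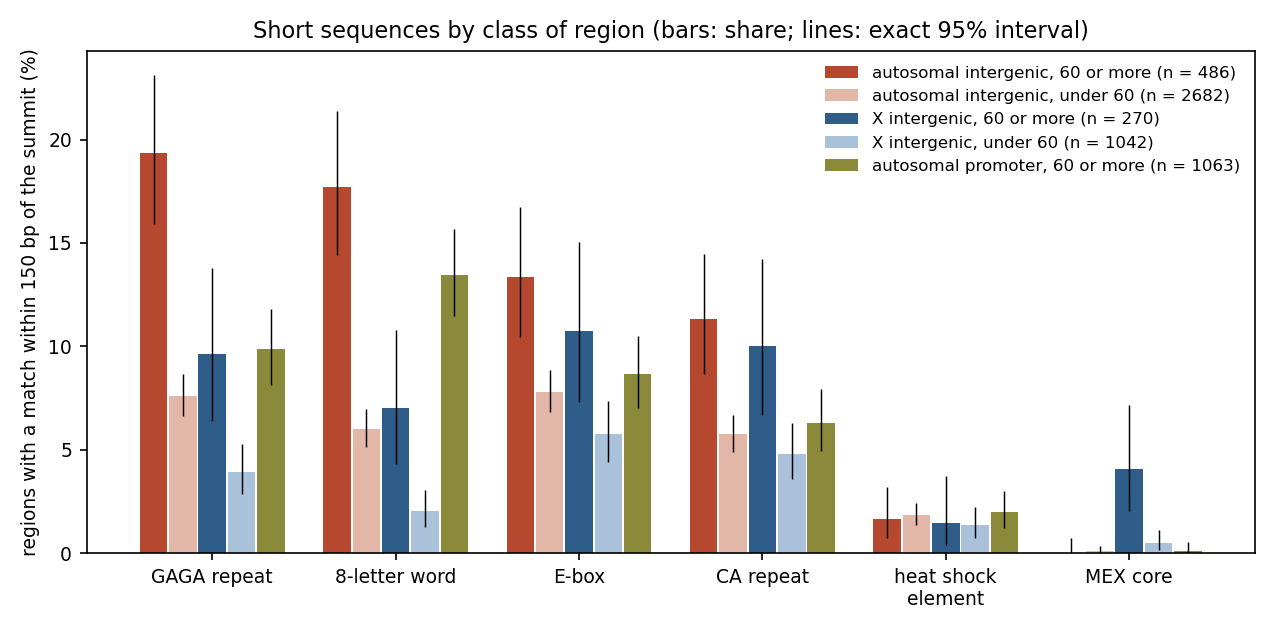
Share of regions, in percent, with each of 6 short sequences within 150 bp of the summit, in 5 classes of region, with bars for the share and lines for the exact 95% interval. Members are the first bar of each set: 19.3% for the GAGA repeat and 17.7% for the 8-letter word AGACGCAG, beside 7.61% and 6.003% in autosomal intergenic regions under 60.

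Both sequences were more common at high than at low signal across all 3168 autosomal intergenic candidates, though not in every bin, and with no step up at 60. The word was at 4.69% of the 661 regions under a signal value of 25, at 11.5% between 50 and 60, at 10.8% between 60 and 70, at 28.0% between 100 and 150, and at 17 of the 44 regions at 150 or more (38.6%, 24.4 to 54.5). The repeat went from 5.14% in the lowest bin to 15.5% (11.2 to 20.5) between 50 and 60, stood at 10.8% (6.39 to 16.7) between 60 and 70, and reached 27.3% (15.0 to 42.8) in the highest. The median GC content went from 38.2% to 44.7% over the same bins. The highest bin holds few regions, and its intervals are wide. Both sequences were chosen with this signal known, so their rise is a description only.

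**Figure D3:**
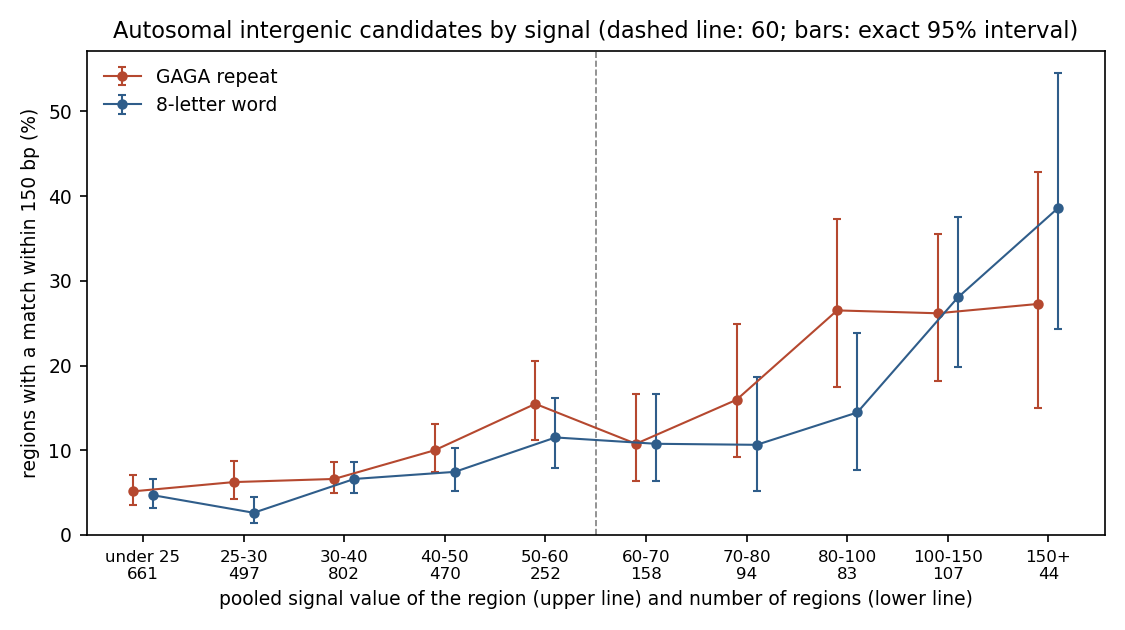
Share of autosomal intergenic candidates with the GAGA repeat and with the 8-letter word, in percent with exact 95% intervals, in 10 bins of pooled signal value, with the number of regions under each bin and a dashed line at the threshold of 60. The word goes from 4.69% to 38.6% and the repeat from 5.14% to 27.3%.

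GC content moved with both, so the shares were also read within bins of GC content. Members had a median GC content of 41.5% within 150 bp of the summit, beside 38.5% for candidates under 60 and 40.7% for X regions. Between 40 and 45% GC, the word was at 20.4% of 137 members and 9.18% of 632 candidates under 60, and between 45 and 50% GC at 29.9% of 97 and 11.9% of 328. At 50% or more it was at 28.3% of 53 and 7.58% of 132. The repeat was at 24.1% and 10.8%, 28.9% and 13.7%, and 35.8% and 12.1% in the same bins. X regions at 60 or more held the word at 6.06% of 66, 12.8% of 39 and 26.5% of 34 in those bins. At 50% GC or more the X regions were thus near the members, though few. Under 35% GC the repeat was at 2.35% of 85 members and 2.89% of 760 candidates, so there the members were not above.

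The lists of single replicates gave like shares. Replacing the pooled list by replicate 5 alone and taking its top 4118 nuclear regions gave 492 autosomal intergenic regions, of which 17.1% held the word and 19.9% the repeat, beside 6.01% and 8.05% of the lower regions of that list. With replicate 4 alone there were 443, with 15.8% for the word and 15.8% for the repeat, beside 5.62% and 6.62%. These regions overlapped 73.7% and 62.6% of the members, and the word was chosen on the pooled list that holds both replicates, so the lists are not independent of it.

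Matches also lay closer to the summit in members. The nearest match to the word was a median of 35.5 bp from the summit in the 86 members that held it and 57.5 bp in the 161 candidates under 60, and it was within 50 bp in 57.0% and 42.9%. The nearest repeat was at a median of 44.5 bp in members and 68.0 bp in candidates under 60. For the E-box these medians were 63.5 and 71.5 bp. In the 25 bp on either side of the summit there were 16 and 18 matches to the word in members, and fewer in each of the other 25 bp steps.

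**Figure D4:**
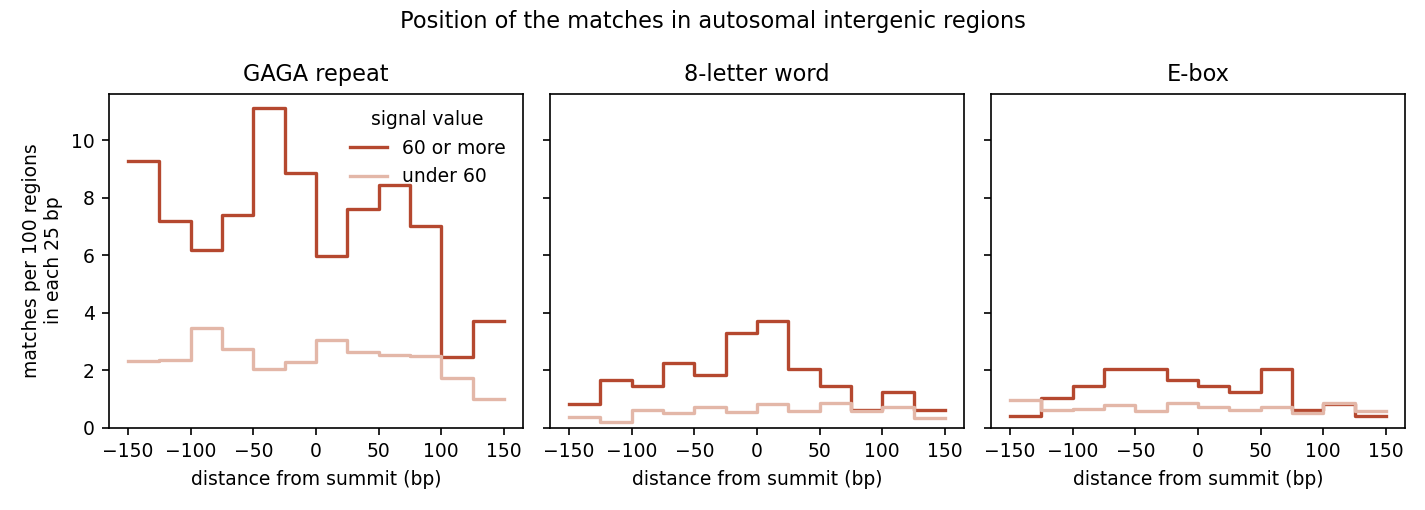
Matches to the GAGA repeat, the 8-letter word and the E-box for every 100 regions in steps of 25 bp from 150 bp before to 150 bp after the summit, for members and for autosomal intergenic candidates with a signal value under 60. Overlapping matches are each counted, which raises the repeat, and the word is most frequent within 25 bp of the summit in members, at 3.29 and 3.70 matches for every 100 regions.

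By position, members were spread over all autosomes: 94 on I, 90 on II, 88 on III, 94 on IV and 120 on V. For each Mb of eligible sequence this was 37.9 on I, 29.4 on II, 35.7 on III, 21.9 on IV and 29.98 on V, where the X had 53.1 intergenic regions at 60 or more. The word was at 24 of 88 members on III and 12 of 120 on V, and the repeat at 25.5% on IV and 10.8% on V. On chromosome arms, the outer 30% on each side, lay 269 members (55.3%, 50.8 to 59.8), beside 66.4% (64.5 to 68.2) of candidates under 60 and 68.9% of X regions. Members stood at 27.1 for each Mb on arms and 34.0 in centres, while candidates under 60 stood at 179 and 141, the opposite order. This did not hold on every autosome: members on II stood at 29.5 on arms and 29.2 in centres, and candidates under 60 on IV at 109 and 117.

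Members lay at a median of 2158.5 bp from the nearest protein-coding start (1967 to 2309), beside 2528.5 bp (2444 to 2595) for candidates under 60. In the step just outside the promoter window, 1000 to 1500 bp upstream of a start, lay 23.5% of members and 16.8% of candidates under 60. Over 5 kb away were 55 members (11.3%) and 16.8% of candidates under 60. The summit was upstream of the nearest start in 65.2% of members and 68.0% of candidates under 60. It stood between genes in the same direction in 61.1% of members, between divergent genes in 21.8% and between convergent genes in 17.1%, beside 55.7%, 27.0% and 17.2%. The intergenic stretch was a median of 5062 bp long, beside 6223.5 bp.

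**Figure D5:**
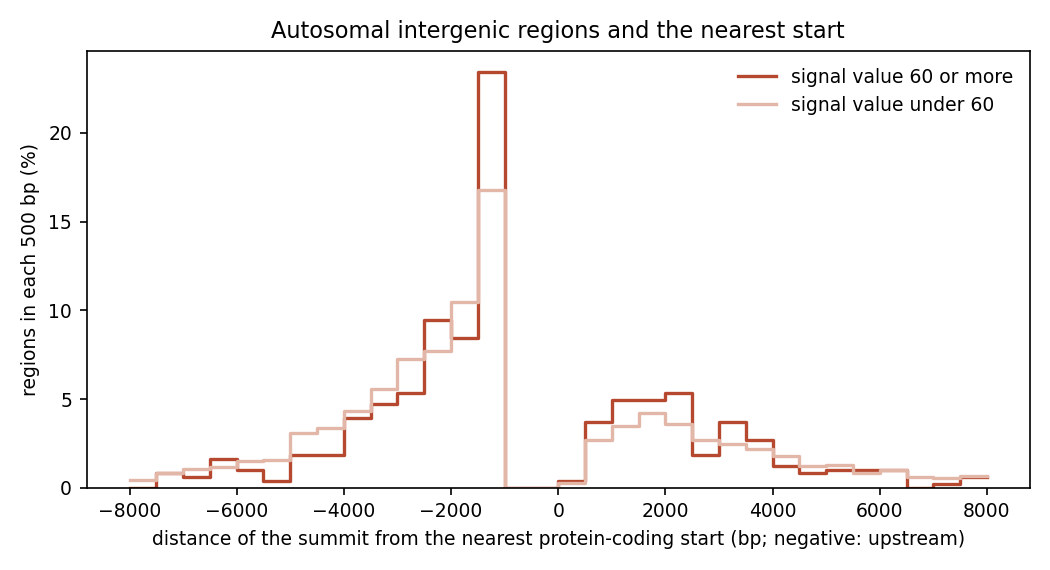
Share of members and of autosomal intergenic candidates with a signal value under 60, in percent, in steps of 500 bp from the nearest protein-coding start, with upstream distances negative. The window from 1000 bp upstream to 200 bp downstream is empty by the rule, the highest step is 1000 to 1500 bp upstream at 23.5% and 16.8%, and 14 members and 143 other candidates beyond 8000 bp are not drawn.

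The most distant member was 21481 bp upstream of egl-18, a GATA factor gene, but only 245 bp past the end of egl-4, a cGMP-dependent protein kinase gene (chrIV:1880619-1881062, signal value 76.8). It was uneven between replicates, at rank 875 in replicate 4 and 28858 in replicate 5. A member named for usp-50, at 11006 bp from that start, was 360 bp from dpy-21, which encodes a histone demethylase of the dosage compensation complex (chrV:17935700-17936143, signal value 73.8). In both cases the end of another gene was much nearer than the start that gave the name.

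Some members lay close together, but the same count was not made for other classes of region. Within 5 kb of another member were 196 of the 486, in 84 groups, of which 21 held 3 or more and the largest held 4. The 4 members upstream of nhr-88 spanned 3755 bp, with signal values of 294, 69.5, 66.8 and 64.1, so 1 summit stood well above the rest. At ret-1, the reticulon gene, 4 members spanned 2162 bp with signal values of 147, 91.3, 67.3 and 64.3. Further groups of 4 lay by pptr-1, by clec-91 and mel-26, by rho-1, by sptf-3 and C01A2.9, and by cox-5B and hrdl-1. In 46 adjacent pairs the intervals overlapped, and such pairs count among these groups. The groups were not counted again without them. With overlapping members counted once, 440 were left, of which 18.9% held the word and 19.8% the repeat.

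Groups of 3 members included the following, named after their values were seen. At lpin-1, the lipin gene, signal values were 113, 104 and 93.9 within 2021 bp, all upstream of the start. The intervals at 104 and 93.9 overlapped. A group near fat-1, fat-2 and far-6, genes of desaturases and of a fatty acid-binding protein, had values of 78.9, 127 and 63.4. Upstream of din-1, which encodes a corepressor that works with a steroid hormone receptor, the values were 149.8, 97.8 and 66.6 within 1750 bp.

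Non-coding genes other than the classes removed by the rule were near some members. A microRNA gene was within 500 bp of 9 members (1.85%, 0.850 to 3.49), beside 0.746% (0.456 to 1.15) of candidates under 60 and 1.48% of X regions, and these counts are small. The highest was the K01F9.2 region at chrIII:8865327-8865640, printed above, with a signal value of 225 and its summit 128 bp from mir-80, a member of the bantam-like family. Its nearest protein-coding start was 11633 bp away, and mir-80 was nearer than any protein-coding gene. It was among the top in both replicates, at ranks 248 and 197. The next was 117 bp from mir-51 (131, chrIV:11026126-11026302), of the family to which mir-53 also belongs, and a member with a signal value of 67.4 stood 164 bp from mir-53.

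The remaining members near microRNA genes had lower signal values than the regions at 225 and 131 named above. They lay 205 bp from mir-45 (107), 262 bp from mir-79 (79.2), 277 bp from mir-48 (68.5), 91 bp from mir-72 (63.9) and 55 bp from mir-5548 (63.1), and a second member was 335 bp from mir-80 (87.3). Of these genes mir-48 is a let-7 family member that acts in developmental timing. Genes for piRNAs were within 500 bp of 13 members (2.67%) and 2.61% of candidates under 60. Pseudogenes were within 500 bp of 3.70% and 5.15%, and long intergenic RNA genes of 1.03% and 0.708%.

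The nearest protein-coding genes were also counted by gene family. Nuclear hormone receptor genes were nearest to 15 members (3.09%, beside 2.91% of candidates under 60), led by nhr-88 (294), nhr-20 (142) and nhr-84 (100.005). Ribosomal protein genes were nearest to 5 (1.03% beside 0.447%), led by those near rps-6 (118), rpl-7A (89.3) and rps-27 (80.02). All 3 of these stood past the gene, with summits 153, 103 and 291 bp from its end, and 2 of them were uneven: that near rps-6 was at rank 340 in replicate 4 and 9376 in replicate 5, and that near rpl-7A at ranks 843 and 10566. Collagen genes (col-140 at 83.2 and col-106 at 75.1) and C-type lectin genes (clec-91 at 163 and clec-1 at 63.5) were nearest to 2 members each.

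Chemoreceptor genes, a very large family in this worm, were nearest to 2 members (0.412%), srh-243 at 63.7 and srg-33 at 60.2, and to 63 candidates under 60 (2.35%). F-box genes were nearest to 0 members and to 26 candidates under 60 (0.969%). Homeobox, SUMO pathway and tissue marker genes were nearest to 0 members. They were nearest to 7 (0.261%), 2 (0.0746%) and 4 (0.149%) of the 2682 candidates under 60, so 0 members is near these small shares. Histone genes were nearest to 0 of either.

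The summit base was soft-masked as repeat in 111 members (22.8%, 19.2 to 26.8), beside 30.4% (28.7 to 32.2) of candidates under 60 and 17.04% of X regions. Replicate 5 alone gave 22.0% (18.4 to 25.9) for its top regions and 31.2% for its lower ones, but replicate 4 alone gave 29.1% (24.9 to 33.6) and 33.5% (31.7 to 35.3), so the size of the contrast rests on replicate 5. A second copy, at 90% identity or more over 150 bases, existed for 27 members (5.56%) and for 8.72% of candidates under 60. Some of the highest members were copies all the same, and 1 pair is printed to show how alike they were. The K08F11.1 region (chrIV:4725551-4725717, signal value 223) and the Y54G2A.19 region (chrIV:2896105-2896270, signal value 103) were 95.2% identical over 167 aligned bases, both on the plus strand of ce11.
K08F11.1: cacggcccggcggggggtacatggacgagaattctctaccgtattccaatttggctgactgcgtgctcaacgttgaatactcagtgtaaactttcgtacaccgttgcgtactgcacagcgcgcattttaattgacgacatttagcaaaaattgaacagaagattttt
Y54G2A.19: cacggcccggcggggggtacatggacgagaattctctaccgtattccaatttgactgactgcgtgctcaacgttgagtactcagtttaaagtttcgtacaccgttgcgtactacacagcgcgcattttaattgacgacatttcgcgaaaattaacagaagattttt
Each had 7 such alignments elsewhere in the genome, where alignments that overlap were each counted. How reads that match several copies were placed by the authors is not stated, so the signal at each is uncertain.

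A larger set of like members was the trio near zip-11 (chrIV:3313418-3313613, signal value 162), Y116A8A.150 (108) and K07D4.2 (90.3), with identities of 96.3 to 100% over 126 to 204 bases. The region near F40E3.3 and that near F53E10.5 (chrV:2600624-2600841), both of the 20 highest, were 83.6% identical over 122 bases. The Y41E3.13 region (chrIV:15059264-15059485, signal value 180) was soft-masked over its whole window and shared sequence with the nhr-291 region (64.5). These regions had 482 and 378 alignments elsewhere in the genome, at 90% identity or more over 150 bases. Overlapping alignments were each counted, so these are not numbers of separate copies. The Y41E3.13 region was at rank 2821 in replicate 4 and 205 in replicate 5, so it too was uneven. Among the members with a like partner or 10 or more such alignments, 2 held the word, F53E10.5 and tpst-1.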

How the data were processed

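ChIP-seq for tagged GEI-17 was analysed from 4 region lists in ce11: 1 for each of replicates 4 and 5, 1 of the pooled replicates and 1 that passed IDR. Per the listings deposited beside the samples, candidates were called on alignments against a control alignment. Which caller was run, in which version, and where IDR was cut is not given in the sources used here. Regions were ranked and filtered by the signal value, a score of unstated scale that the authors deposited for each summit. A −log10 q-value for every summit, deposited too, had a ceiling of 2.89 reached by 221 members and was not used further.

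Summits on 1 interval were merged to the highest. Genes came from Ensembl for WBcel235 and bases from RefSeq's assembly of that build, whose chromosome lengths held every interval. Windows were 150 bp on either side of the summit. Copies were sought with BLAST+ 2.17.0, and each alignment outside the region's own window was counted. Shares have exact (Clopper-Pearson) and medians order-statistic 95% intervals, for counting only. The members, motifs and lists were chosen with earlier results of these data known, and the word AGACGCAG after the shares were seen. No test was made. Named regions were the 20 highest, the highest on each autosome, 5 on either side of the threshold, up to 5 lacking a replicate, the 2 highest for each motif, members with like sequence and up to 3 for each gene list. Regions named beside microRNA genes, in groups and at far starts were chosen after their values were seen. Alternatives were other thresholds, promoter windows, annotations, summits, overlaps, motif windows and copy criteria, and either replicate alone. Location and motif calls were tested on simulated data. Versions were Python 3.11.15, scipy 1.17.1, numpy 2.4.6, matplotlib 3.10.9 and pandas 2.3.3.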

Additional observations from a re-analysis of the deposited data

How the results depend on the processing

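Of 139 values recomputed under an alternative, 108 stayed within the interval of the value reported (within 1.5 times for the number of members) and 31 moved. The number of members became 738 at a threshold of 50, 234 at 80, 108 with only regions passing IDR and 303 with a promoter window of 2000 bp upstream to 500 bp downstream. At those first 3 settings the share in the IDR list was 14.6%, 46.2% and 100%, and the share with a candidate of both replicates 87.1%, 95.7% and 98.1%. The latter was 95.3% for an overlap of 1 bp, 71.6% for summits within 100 bp, and 73.8 to 75.6% with either replicate left out. A threshold of 80 and the IDR list gave a median GC content of 42.7% and 44.4%, the repeat at 26.5% and 27.8%, and the word at 25.2% and 32.4%. A window of 50 bp, which holds fewer bases, gave a GC content of 43.6%, the repeat at 10.1% and the word at 9.88%, and the whole interval gave a GC content of 40.3%. Leaving out 1 replicate gave the repeat at 15.8 to 19.9%, a median width of 450 to 460 bp and a soft-masked summit at 22 to 29.1%, the higher without replicate 5 and near the 30.4% of candidates under 60. Second copies were at 18.3% for 80% identity over 100 bases, and the distance to the nearest start was 1591 bp and 3092 bp with the smaller and larger promoter windows, as their construction fixes. For the other values that moved the cause was not tested. The word, its alternatives, the single-replicate shares and the counting of overlapping members once were added after the data were seen. Depth is unknown, so the precision of single regions is too. No paired analysis was possible because there was 1 group and no test.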
